A study of Rattus norvegicus with 9 samples.

Results

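The glutamate receptors and transporters of the rat hippocampus were followed through exposure to ketone bodies. The members were all probe sets whose platform gene symbol belongs to the AMPA (Gria), kainate (Grik), NMDA (Grin), delta (Grid) or metabotropic (Grm) glutamate receptor families, the vesicular glutamate transporters (Slc17a6, Slc17a7, Slc17a8) or the Slc1a transporters of the plasma membrane. The rule took 52 of 31042 probe sets, which stand for 32 of 14217 named genes. The rule uses names only, though the family was picked for description with earlier results of these data known. Slc17a8 was not analysed here.

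Total RNA came from hippocampal neurons of Rattus norvegicus, as the labels describe it, on 9 arrays. There were 3 arrays each for a control kept in artificial cerebrospinal fluid alone, for ketone bodies over 1 h and for ketone bodies over 6 h. The labels give neither strain, age nor which ketone bodies were used, no exposure time for the control, and no statement that replicates were separate animals or cultures. Every p therefore measures the spread between these arrays, which may be technical.

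Glutamate carries most fast excitation in the hippocampus. Vesicular transporters load it into synaptic vesicles, ionotropic receptors (AMPA, kainate and NMDA) open cation channels when it binds, and metabotropic receptors act through G proteins over longer times. Transporters of the Slc1a family clear it from the extracellular space, with those of astrocytes doing most of the work. AMPA receptors mediate the rapid component of transmission and NMDA receptors the calcium entry needed for many forms of plasticity.

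Values are log2(signal + 16) after quantile normalization, so a difference of 1 is a doubling for strong signals and understates the change of weak ones. Levels of different probe sets are not comparable with each other. Of the 52 member probe sets, 39 passed a filter on the mean over all 9 arrays (log2 5.21), standing for 27 genes. The other 13 had means between 4.24 and 5.18 and were not tested. They include every probe set of Grik3, Grin3b, Grid1, Grm6 and Slc1a6, with 8 probe sets among them. The remaining 5 untested probe sets belong to Gria4, Grin1, Grin2a and Grin2d, each of which had another that passed. Of the 39 tested probe sets, 3 had a group mean under the filter and passed through the groups where they were higher. Grm5 (1369355_at) passed through control and 6 h, and Grin2d and Slc1a5 through the ketone arrays. Arrays of one group correlated with each other at 0.949 to 0.987 and arrays of different groups at 0.945 to 0.988 over all tested probe sets. RNA integrity was read from the log2 ratio between the 3' and 5' control probe sets of beta-actin. This ratio was 1.37, 1.27 and 1.42 on the control arrays, 1.39, 2.16 and 2.02 at 1 h, and 2.58, 1.92 and 1.03 at 6 h. The control arrays were close together, and most ketone arrays lay above them. Arrays 2 and 3 of 1 h and arrays 1 and 2 of 6 h were above the control range. Array 1 of 1 h was within it, and array 3 of 6 h was below it.

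At 1 h no glutamate receptor or transporter passed an adjusted p of 0.05, but the low side was the more populated one. Of 39 tested probe sets, 25 had a negative log2 change (64.1%, beside 44.7% of all 18625 tested probe sets). The median was -0.14, beside 0.029 over all tested probe sets. The kainate receptor subunit Grik2, the AMPA subunit Gria2, the NMDA subunit Grin2b, the metabotropic receptors Grm5 and Grm7 and the neuronal glutamate transporter Slc1a1 gave the 6 probe sets with an unadjusted p under 0.05, all with negative changes. By limma 0 members passed over the whole table (lowest adjusted p = 0.351), where 0.0322% of all tested probe sets did. Those 6 make 15.4% of the members, beside a background of 4.67% with an unadjusted p under 0.05 and a lower value. With a higher value there were 0 members, beside a background of 6.68%. Among the 36 members with every group mean above the filter, which leaves out Grm5 1369355_at, 5 had such a p and a lower value. The count of 6 was 2 without control 2, 3 without control 3, 3 without ketone_1h 3 and 10 without ketone_6h 1.

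All 1 h arrays lay below all control arrays in 8 of the 39 probe sets (20.5%, beside 8.26% of all tested ones). These were Gria2 (1368401_at), Gria3 (1368691_at), Grik2, Grin2b (1391708_at), Grm5 (1369355_at), Grm7, Slc1a1 (1387932_at) and Slc1a3 (1388064_a_at). There were 7 without that of Grm5, whose 1 h mean was under the filter. In 1 probe set, the other of Grin2b (1369745_at), they lay above (2.56%, beside 13%). The members share arrays and RNA, so they do not vary independently, and no p is given for them as a group.

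**Figure D1:**
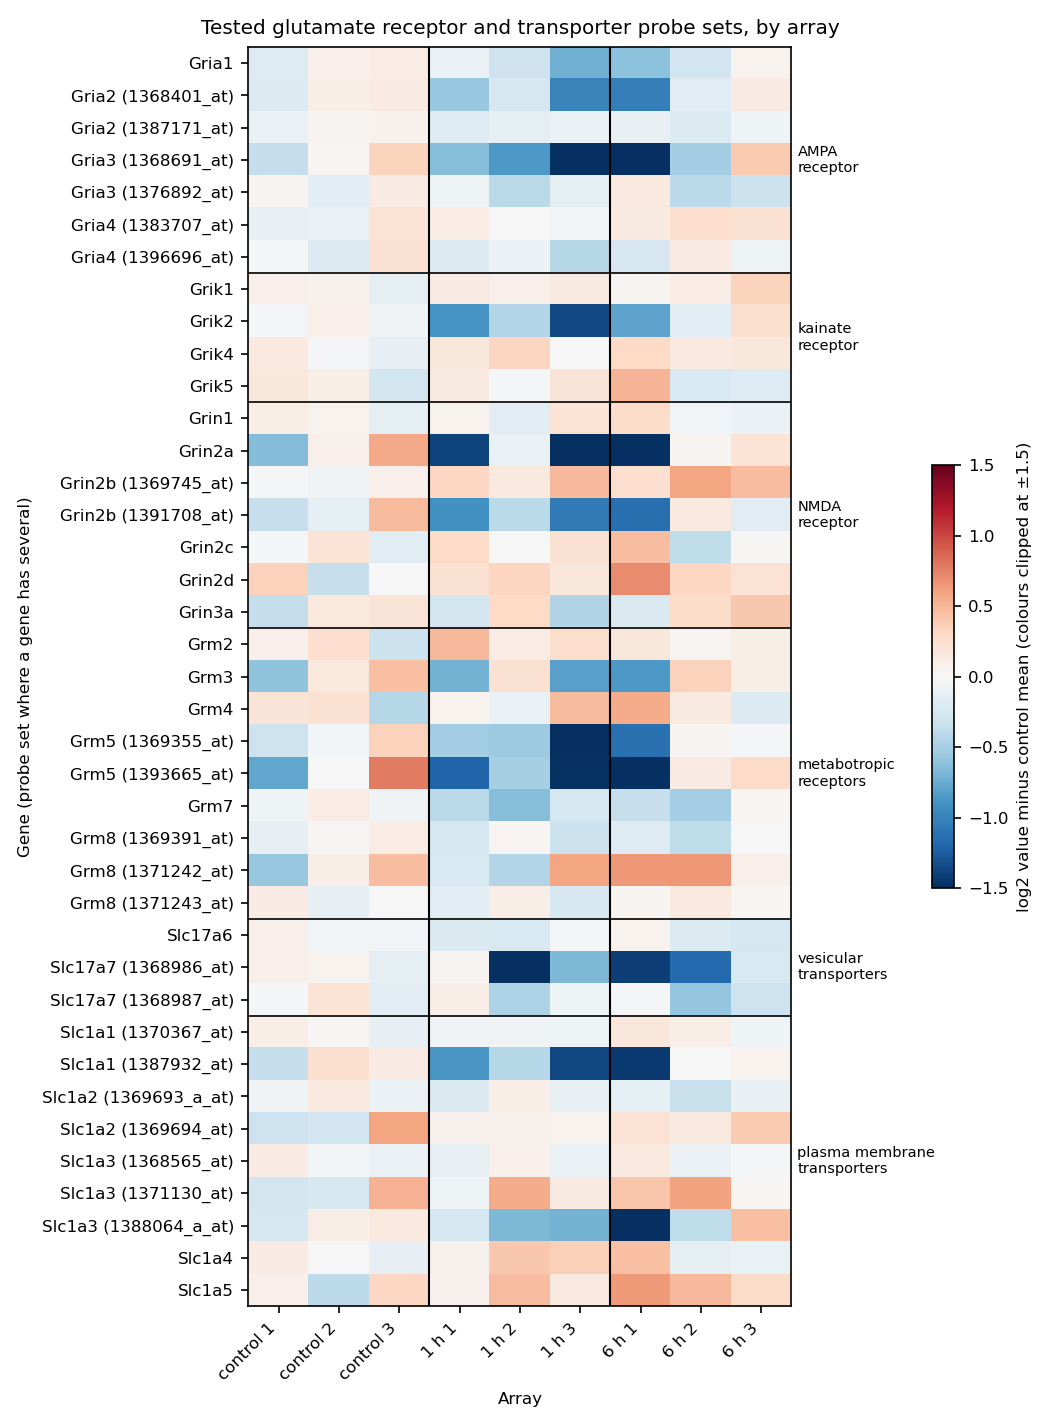
Each cell is 1 array (columns) and 1 tested probe set (rows), coloured by its log2 value minus the control mean, with black lines between groups and between receptor or transporter classes. The deepest blue cells fall mainly on array 3 of 1 h and array 1 of 6 h, which each had 12 members more than 0.5 below the control mean, while array 3 of 6 h had 0.

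At 6 h the members were evenly split, with 20 of 39 log2 changes negative (51.3%, beside 46.2% of all tested probe sets) and a median of -0.068, beside 0.015 over all tested probe sets. Here the vesicular transporter Slc17a7 was the member with a negative change at an unadjusted p under 0.05, and Grin2b (1369745_at) and the neutral amino acid transporter Slc1a5 were the pair with positive ones. By limma 0 members passed (lowest adjusted p = 0.987), beside 0.0268% of all tested probe sets. The 1 lower member is 2.56% of the list, beside a background of 1.47%, and the 2 higher ones are 5.13%, beside 2.79%. One of the higher pair, Slc1a5, passed the filter only through the ketone arrays. This count of 3 was 1 without control 2, 5 without control 3, 0 without ketone_6h 2 and 9 without ketone_6h 3. Groups did not overlap for 2 lower members (Slc17a7 1368986_at and Slc1a2 1369693_a_at; 5.13%, beside 3.15%) and 2 higher ones (Grik4 and Grin2b 1369745_at; 5.13%, beside 6.05%).

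**Figure D2:**
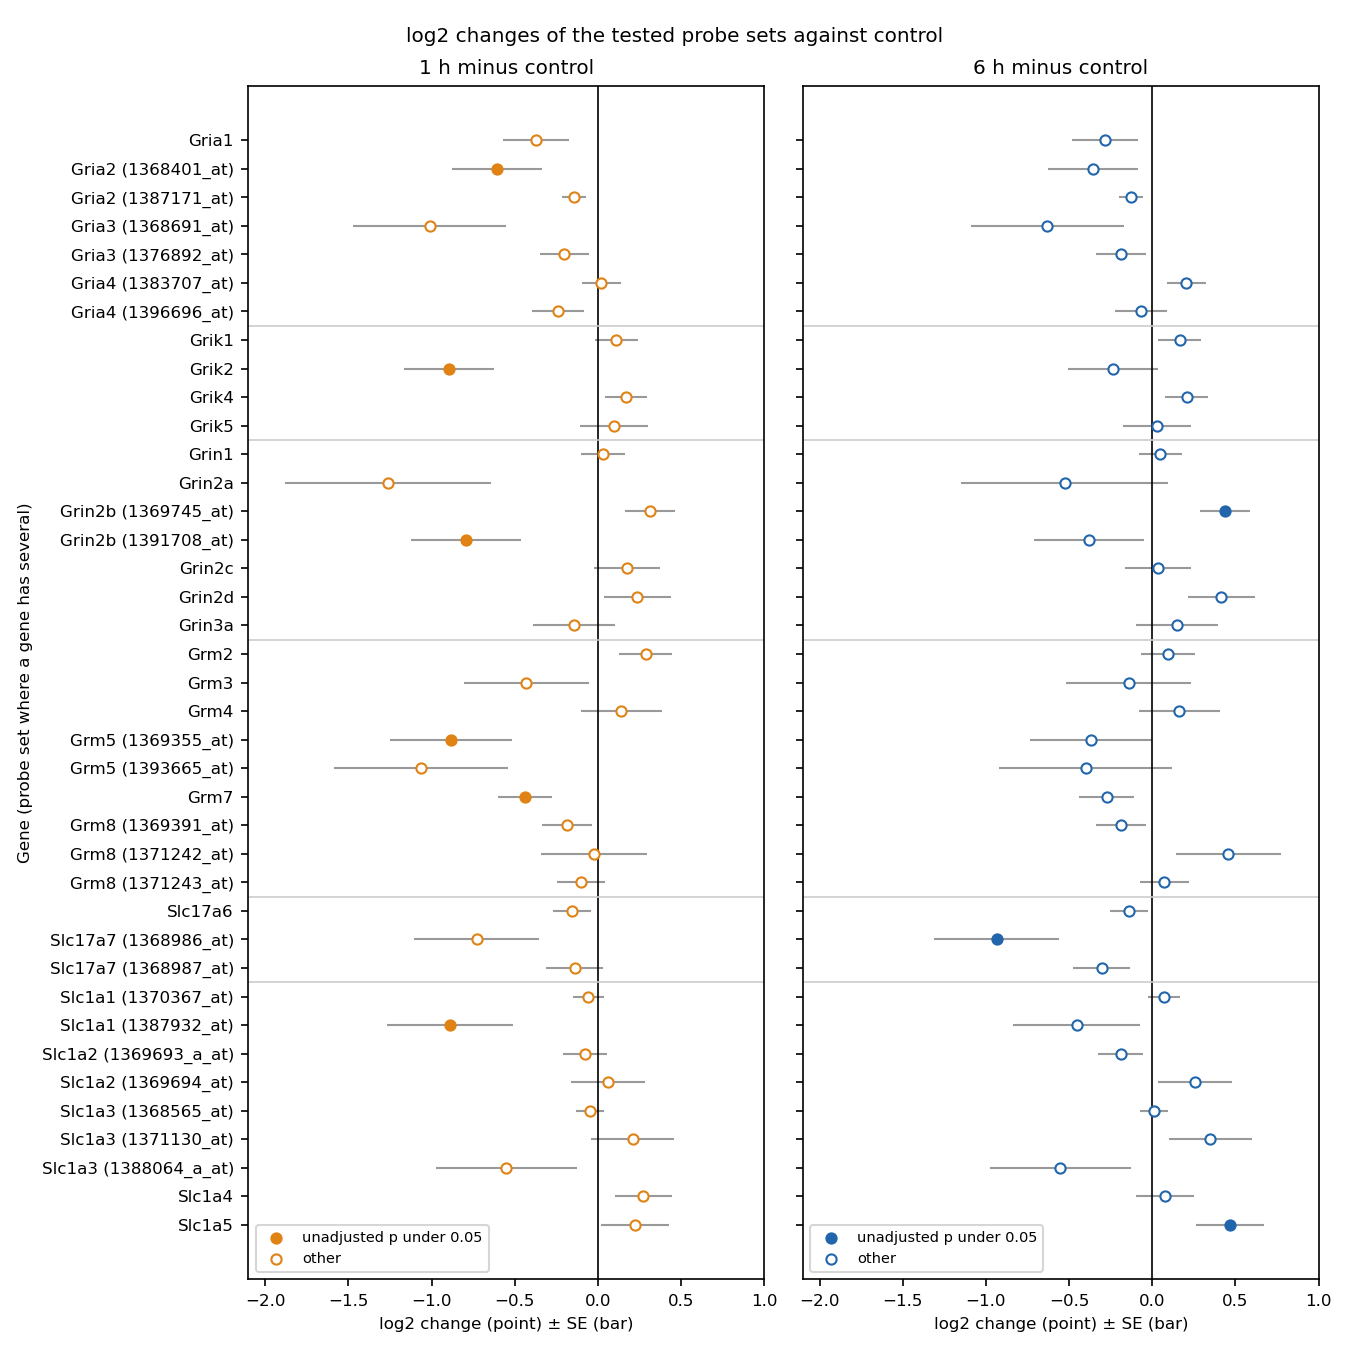
Points are log2 changes at 1 h (left) and 6 h (right) against the same control arrays, and bars are the standard error, for the 39 tested probe sets. Filled points have an unadjusted p under 0.05, 6 at 1 h and 3 at 6 h, and the 2 panels share their controls.

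Among AMPA receptor subunits, which form the channels of fast transmission, 6 of 7 probe sets had negative changes at 1 h, with a median of -0.24, and 6 of 7 at 6 h, with a median of -0.19. Gria2 encodes the subunit whose edited form keeps calcium out of the channel. Its probe set 1368401_at read 10.43, 10.73 and 10.76 in control, 10.07, 10.39 and 9.65 at 1 h, and 9.62, 10.47 and 10.76 at 6 h. Every 1 h array was below every control array, and array 3 of 6 h was at the control level. The log2 change was -0.61 ± 0.27 at 1 h (SE, n = 3 arrays per group throughout; limma adjusted p = 0.437) and -0.36 ± 0.27 at 6 h (limma adjusted p = 0.987). The other Gria2 probe set, 1387171_at, had -0.15 ± 0.07 at 1 h and -0.13 ± 0.07 at 6 h.

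Gria3 encodes another AMPA subunit, and its probe sets also parted. Probe set 1368691_at read 7.22, 7.60 and 7.91 in control, 6.94, 6.71 and 6.04 at 1 h, and 5.80, 7.05 and 7.97 at 6 h. The 1 h arrays were all lower than control, while the 6 h arrays ran from far below control to its upper edge. Its change was -1.01 ± 0.46 at 1 h, against -0.20 ± 0.15 for 1376892_at. Gria1, a subunit abundant at CA1 synapses, had -0.37 ± 0.20 at 1 h and -0.28 ± 0.20 at 6 h. The probe sets of Gria4 gave 0.02 ± 0.12 and -0.24 ± 0.16 at 1 h, and 0.20 ± 0.12 and -0.07 ± 0.16 at 6 h.

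Of the kainate receptor subunits, 4 of 5 genes were tested, and Grik2 stood alone with a negative change. Grik2 encodes a principal subunit, found at the mossy fibre synapses of CA3. It read 6.85, 6.95 and 6.82 in control, 5.99, 6.43 and 5.52 at 1 h, and 6.09, 6.71 and 7.11 at 6 h. The 1 h arrays did not overlap with control, and the 6 h arrays enclosed the control range. The change was -0.89 ± 0.27 at 1 h (limma adjusted p = 0.351) and -0.24 ± 0.27 at 6 h (limma adjusted p = 0.987). At 6 h against 1 h it was 0.66 ± 0.27 (limma adjusted p = 0.996). The high-affinity partner subunits Grik4 and Grik5 had 0.17 ± 0.13 and 0.10 ± 0.20 at 1 h, and Grik1 had 0.11 ± 0.13. At 6 h all arrays of Grik4 lay above control, with 7.10, 6.952 and 6.98, against 6.948, 6.78 and 6.68 in control (0.21 ± 0.13). The gap was far smaller than the spread within either group. Its 1 h arrays read 6.97, 7.13 and 6.81.

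The start regions of 3 members are shown because those genes gave the lowest p of their class at 1 h (Grik2, Grm7) or 6 h (Slc17a7). The letters come from RefSeq on build GRCr8, cover the 250 bases before the annotated start, 5' to 3' on the gene's strand, and carry the GC box GGGCGG, searched on both strands, in capitals.
Grik2, chr20:54415284-54415533, minus strand: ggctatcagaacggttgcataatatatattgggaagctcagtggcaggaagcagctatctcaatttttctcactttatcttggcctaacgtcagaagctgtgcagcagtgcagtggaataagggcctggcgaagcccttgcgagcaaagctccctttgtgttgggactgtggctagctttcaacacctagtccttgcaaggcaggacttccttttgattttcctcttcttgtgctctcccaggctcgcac
Grm7, chr4:145286476-145286725, plus strand: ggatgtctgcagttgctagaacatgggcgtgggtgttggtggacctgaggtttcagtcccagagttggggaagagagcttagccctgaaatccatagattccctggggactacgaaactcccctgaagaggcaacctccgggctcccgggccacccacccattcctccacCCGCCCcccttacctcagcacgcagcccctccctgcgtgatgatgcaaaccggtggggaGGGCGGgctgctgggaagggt
Slc17a7, chr1:104785955-104786204, plus strand: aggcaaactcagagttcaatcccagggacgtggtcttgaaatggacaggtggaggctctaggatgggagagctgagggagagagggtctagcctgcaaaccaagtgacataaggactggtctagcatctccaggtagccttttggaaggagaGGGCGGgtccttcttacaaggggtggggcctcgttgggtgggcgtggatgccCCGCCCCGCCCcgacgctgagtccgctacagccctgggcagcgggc
The box occurs 0 times in the Grik2 window, 2 times in that of Grm7 and 3 times in that of Slc17a7, where 2 copies overlap by a base. GC content was 49.6%, 62% and 61.2% in the same order of genes. Of the member genes, 20 of 32 matched a window by gene number, and 5 of their 23 windows held the box (21.7%), beside 30.5% of all 33469 windows. A match describes letters only.

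NMDA receptor subunits had 3 of 7 negative changes at 1 h (median 0.03) and 2 of 7 at 6 h (median 0.05). Grin1, the obligatory subunit that binds glycine, read 9.47, 9.43 and 9.22 in control, 9.42, 9.21 and 9.57 at 1 h, and 9.65, 9.33 and 9.29 at 6 h. The ranges of the groups overlapped in this probe set (1368572_a_at), with changes of 0.03 ± 0.13 at 1 h and 0.05 ± 0.13 at 6 h. The other Grin1 probe set, 1389900_at, was not tested and had means of 5.52 in control, 4.60 at 1 h and 5.32 at 6 h. Its 1 h arrays all lay below control, and each of them was under the filter level. Among the other untested probe sets, Gria4 1369384_at was also wholly below control at 1 h. Grik3, Grin2a 1387400_at, Grin3b 1387559_at and Grid1, also untested, were wholly above it. Grin2b, a glutamate-binding subunit that gives slow channel closing, gave opposite signs in its probe sets. Probe set 1391708_at read 6.37, 6.58 and 7.19 in control, 5.81, 6.30 and 5.65 at 1 h, and 5.59, 6.86 and 6.55 at 6 h, and probe set 1369745_at read 5.22, 5.21 and 5.33 in control, 5.57, 5.40 and 5.74 at 1 h, and 5.50, 5.85 and 5.72 at 6 h. With 1391708_at the 1 h arrays all lay below control, and with 1369745_at both ketone groups lay wholly above it.
The change of 1391708_at was -0.79 ± 0.33 at 1 h (limma adjusted p = 0.419) and -0.38 ± 0.33 at 6 h. That of 1369745_at was 0.31 ± 0.15 at 1 h and 0.44 ± 0.15 at 6 h (limma adjusted p = 0.987). Its control mean of 5.25 is just above the filter, and the 6 h change was 0.66 with a pseudocount of 1 and 0.21 with 64. Grin2a (1380861_at), the subunit typical of mature synapses, had the most negative 1 h change among the tested members, -1.26 ± 0.62. Its arrays read 7.97, 8.71 and 9.20 in control, 7.23, 8.53 and 6.34 at 1 h, and 6.80, 8.67 and 8.83 at 6 h. The 1 h range overlapped with control, and within each group the arrays lay more than 1 apart. The untested Grin2a probe sets had means of 5.41 in control and 5.01 at 1 h (1368985_at), and of 5.18 and 5.41 (1387400_at). Grin2c, Grin2d and Grin3a had 0.17 ± 0.20, 0.24 ± 0.20 and -0.14 ± 0.25 at 1 h, and 0.03 ± 0.20, 0.41 ± 0.20 and 0.15 ± 0.25 at 6 h.

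Metabotropic receptors had 7 of 9 negative changes at 1 h, with a median of -0.19, and 5 of 9 at 6 h, with a median of -0.14. Grm5 signals through Gq to phospholipase C. Its probe set 1369355_at read 5.37, 5.65 and 6.04 in control, 5.17, 5.14 and 4.11 at 1 h, and 4.57, 5.73 and 5.67 at 6 h. The 1 h arrays were lower than all controls, and each of them was itself below 5.21, where signals are weak. It was -0.88 ± 0.37 at 1 h (limma adjusted p = 0.418), with -0.38 under a pseudocount of 64 and -0.54 without ketone_1h 3. The other Grm5 probe set, 1393665_at, had -1.06 ± 0.52 at 1 h and -0.40 ± 0.52 at 6 h, so both probe sets of this gene pointed the same way in each comparison.

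Grm7, a presynaptic receptor that restrains glutamate release through Gi, read 6.77, 6.94 and 6.78 in control, 6.42, 6.18 and 6.56 at 1 h, and 6.48, 6.32 and 6.85 at 6 h. Each 1 h array was below each control array, with a change of -0.44 ± 0.16 (limma adjusted p = 0.391), and 2 of 3 arrays at 6 h were as low (-0.28 ± 0.16). Its probe set did not follow the pair of arrays with the deepest values elsewhere, since array 2 was the lowest in both ketone groups. Of the other Gi-coupled receptors, Grm2 had 0.29 ± 0.16, Grm3, which astrocytes also express, -0.43 ± 0.38, and Grm4 0.14 ± 0.24 at 1 h. The 3 probe sets of Grm8 ran from -0.19 to -0.02 at 1 h and from -0.19 to 0.46 at 6 h.

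Vesicular transporters had negative changes in all 3 tested probe sets at 1 h (median -0.15) and at 6 h (median -0.30). Slc17a7 fills the vesicles of most hippocampal principal neurons. Probe set 1368986_at read 9.85, 9.83 and 9.65 in control, 9.82, 8.23 and 9.10 at 1 h, and 8.37, 8.61 and 9.54 at 6 h. The 6 h arrays were all below control, while array 1 of 1 h was within the control range. The change was -0.73 ± 0.38 at 1 h (limma adjusted p = 0.484) and -0.93 ± 0.38 at 6 h (limma adjusted p = 0.987). Probe set 1368987_at gave -0.14 ± 0.17 at 1 h and -0.30 ± 0.17 at 6 h. Slc17a6, the transporter of mainly subcortical inputs, had -0.15 ± 0.12 and -0.14 ± 0.12.

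Plasma membrane transporters had 5 of 9 negative changes at 1 h (median -0.05, range -0.89 to 0.27) and 3 of 9 at 6 h (median 0.07, range -0.55 to 0.47). Slc1a2 and Slc1a3 are the transporters by which astrocytes clear glutamate. Slc1a2 (1369693_a_at) read 6.83, 7.04 and 6.79 in control, 6.66, 6.98 and 6.78 at 1 h, and 6.75, 6.55 and 6.78 at 6 h, with -0.08 ± 0.13 at 1 h and -0.19 ± 0.13 at 6 h. At 6 h all arrays lay below control, by a gap smaller than the spread within either group. The second Slc1a2 probe set, 1369694_at, had 0.06 ± 0.22 and 0.26 ± 0.22, of the opposite sign.

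Slc1a3 (1368565_at) stayed within -0.05 ± 0.09 at 1 h and 0.01 ± 0.09 at 6 h, and 1371130_at had 0.21 ± 0.25 and 0.35 ± 0.25. Probe set 1388064_a_at of this gene read 9.05, 9.41 and 9.44 in control, 9.04, 8.62 and 8.59 at 1 h, and 7.58, 8.92 and 9.75 at 6 h (-0.55 ± 0.42 in both comparisons). Array 1 of 6 h was the lowest and array 3 of 6 h the highest of all 9. Slc1a1 is the transporter of neurons. Probe set 1387932_at read 8.14, 8.73 and 8.61 in control, 7.62, 8.06 and 7.13 at 1 h, and 7.06, 8.50 and 8.55 at 6 h, with -0.89 ± 0.38 at 1 h (limma adjusted p = 0.424). The second, 1370367_at, had -0.06 ± 0.09, with all 9 arrays between 9.30 and 9.60. Slc1a4 and Slc1a5 carry neutral amino acids, glutamine among them for Slc1a5, rather than glutamate. Slc1a5 read 5.20, 4.74 and 5.44 in control, 5.19, 5.59 and 5.28 at 1 h, and 5.77, 5.61 and 5.40 at 6 h. The 6 h group was the highest but overlapped with control, and the change of 0.47 ± 0.20 (limma adjusted p = 0.987) rests on signals at the filter's level, with 0.78 under a pseudocount of 1 and 0.21 under 64. Slc1a4 had 0.27 ± 0.17 at 1 h and 0.08 ± 0.17 at 6 h.

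**Figure D3:**
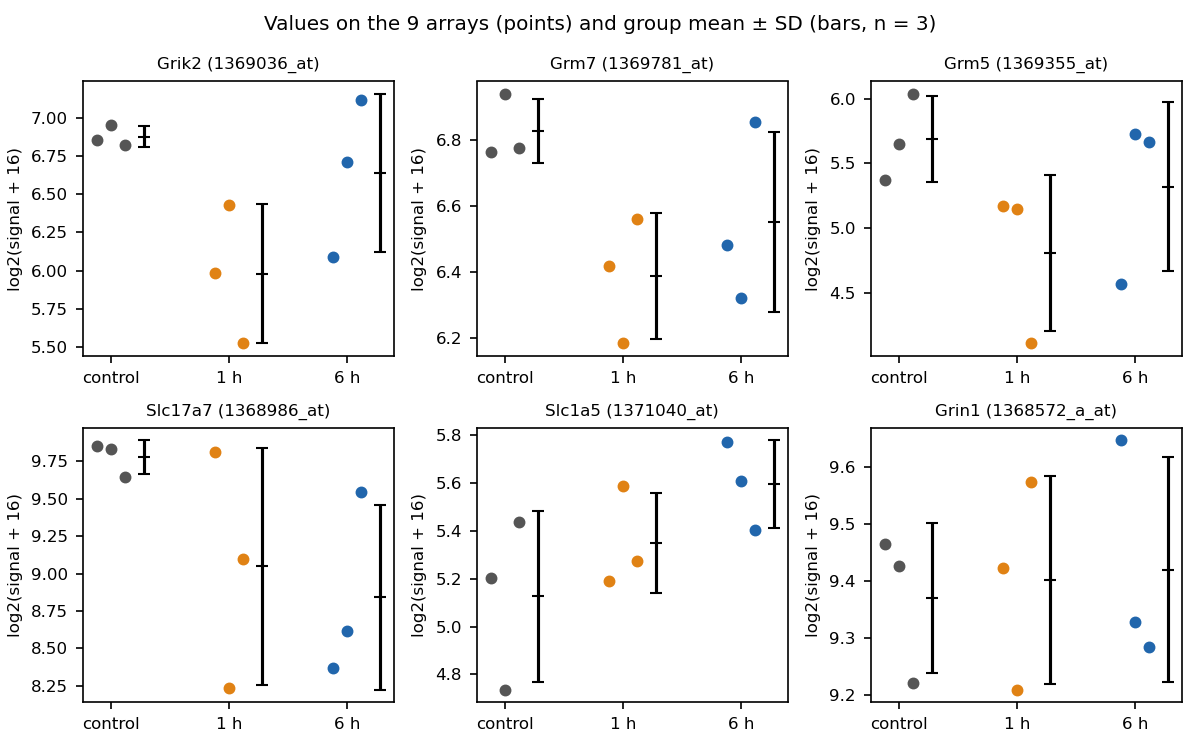
Points are log2(signal + 16) on each of the 9 arrays and bars the group mean ± SD (n = 3) for Grik2, Grm7, Grm5, Slc17a7, Slc1a5 and Grin1, each on its own axis that does not start at 0. Grik2 and Grm7 at 1 h lie wholly below control, Slc17a7 does so at 6 h, and the 3 groups of Grin1 overlap.

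Probe sets of the same gene were compared for the 10 genes with more than 1 tested. At 1 h all probe sets of a gene shared a negative sign for Gria2, Gria3, Grm5, Grm8, Slc17a7 and Slc1a1, and signs were mixed for Gria4, Grin2b, Slc1a2 and Slc1a3. Sizes differed widely even where signs were shared: the gap between the lowest and the highest change was 0.83 for Slc1a1, 0.81 for Gria3, 0.59 for Slc17a7 and 0.46 for Gria2. It was 1.10 for Grin2b, where the signs were opposite.

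Some of the strongly negative probe sets were lowest on arrays with a high 3'/5' ratio of beta-actin. In a fit with that ratio as a covariate beside the groups, added after the data had been seen, the slope per unit of log2 ratio was -1.20 ± 0.18 for Slc1a3 1388064_a_at (SE; limma adjusted p = 0.0242), against 0.12 ± 0.08 for Slc1a3 1368565_at. This was the 1 member with a called slope. Over all tested probe sets 0.886% had a called negative slope and 0.0161% a called positive one. The next most negative slopes were those of Gria3 1368691_at (-1.20 ± 0.25, limma adjusted p = 0.079) and Slc17a7 1368986_at (-0.99 ± 0.20, limma adjusted p = 0.066). Their partner probe sets gave 0.15 ± 0.14 and -0.02 ± 0.17. Array 1 of 1 h, whose ratio of 1.39 lay within the control range, differed from the control mean by -0.57 for Gria2 1368401_at, -0.89 for Grik2 and -0.87 for Slc1a1 1387932_at. For the probe sets with the most negative slopes it differed by -0.26 (Slc1a3 1388064_a_at), -0.64 (Gria3 1368691_at) and 0.04 (Slc17a7 1368986_at).
With the covariate the 1 h changes were -0.66 for Grik2, -0.62 for Grin2b 1391708_at, -0.57 for Grm5 1369355_at, -0.55 for Slc1a1 1387932_at, -0.34 for Gria2 1368401_at and -0.32 for Grm7, and the 6 h change of Slc17a7 1368986_at was -0.45. These 7 kept their sign. Slc1a3 1388064_a_at did not, with 0.05 at 1 h and 0.03 at 6 h beside -0.55 at both times without the covariate. Signs differed from the fit without it for 4 of 39 members at 1 h and 7 of 39 at 6 h, and 0 members passed in any comparison by limma. The members' median was -0.13 at 1 h and -0.02 at 6 h in this fit, beside 0.007 and -0.001 over all tested probe sets, and 1 member had an unadjusted p under 0.05 at 1 h and 1 at 6 h. The ratio itself was 1.85 ± 0.41 at 1 h and 1.84 ± 0.78 at 6 h, against 1.35 ± 0.08 in control (SD, n = 3). An exact 2-sided permutation test gave p = 0.2 at 1 h and p = 0.4 at 6 h, where 3 against 3 arrays cannot go below 0.1 and both become 1 when adjusted over 6 comparisons. The Gapdh ratio was 0.11 ± 0.04 at 1 h and 0.19 ± 0.23 at 6 h, against 0.13 ± 0.11 in control (SD, n = 3).

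**Figure D4:**
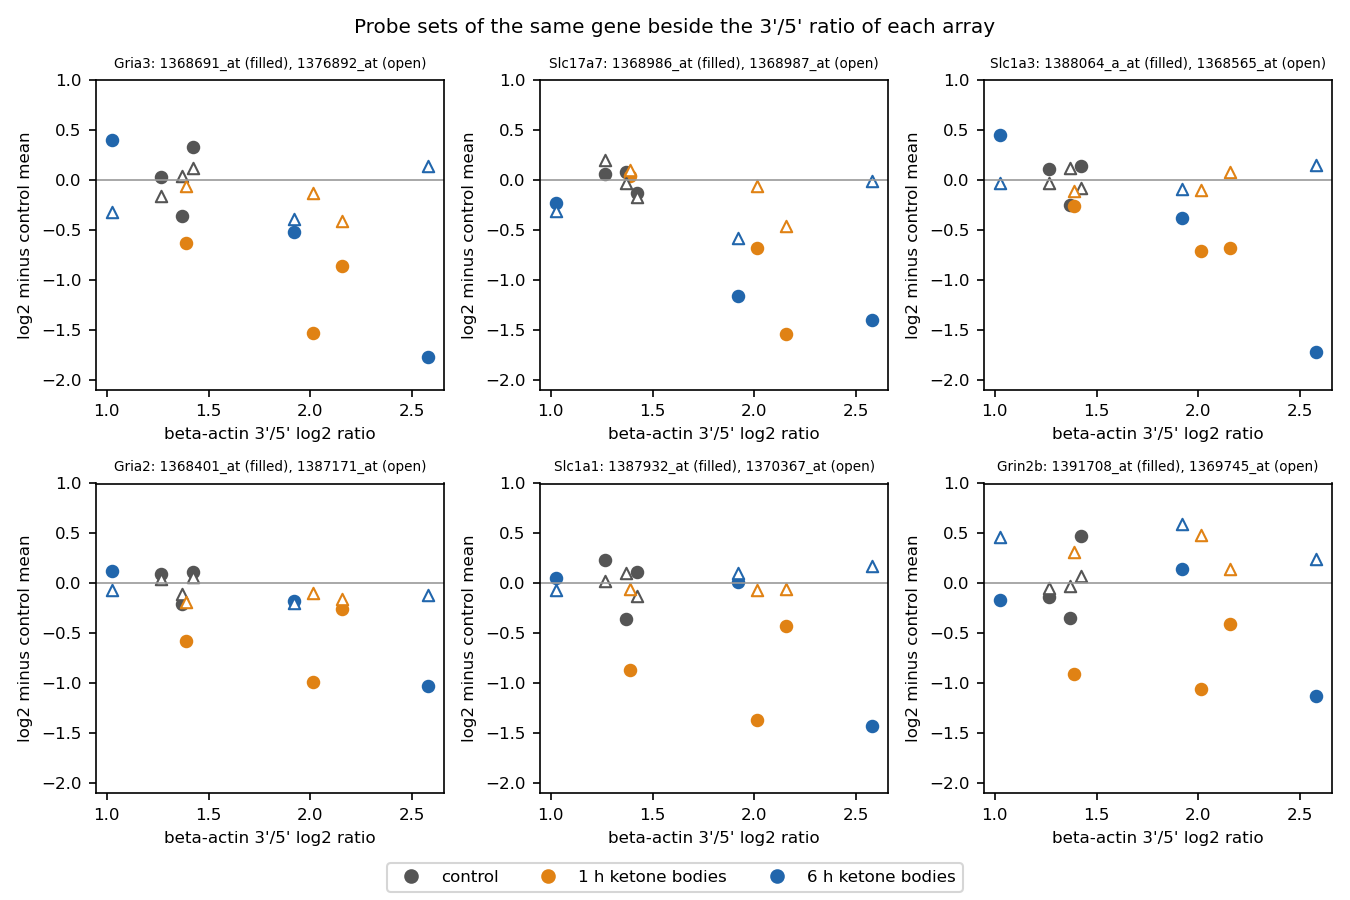
Each panel shows a pair of probe sets of 1 gene (filled and open symbols) as log2 value minus the control mean against the beta-actin 3'/5' log2 ratio of the array, coloured by group. For Gria3, Slc17a7 and Slc1a3 the filled symbols lie lowest on arrays with a high ratio while the open ones stay nearer 0. For Gria2, Slc1a1 and Grin2b the filled symbols are also lowest on a high-ratio array, array 1 of 6 h (2.58). In these genes and in Gria3 (-0.64), array 1 of 1 h is low as well, at a ratio of 1.39. The filled symbol of that array is at -0.26 in Slc1a3 and at 0.04 in Slc17a7.

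At 6 h against 1 h, the direct comparison of the exposure times, 30 of 39 member changes were positive and 9 negative (23.1%, beside 53.0% of all tested probe sets), with a median of 0.13, beside -0.012. All 7 AMPA probe sets were positive, from 0.01 to 0.38. By limma 0 members passed (lowest adjusted p = 0.996), where 0% of all tested probe sets did. Grik2 was the 1 member (2.56%) with an unadjusted p under 0.05 and a higher value, beside 1.31% of all, and there were 0 with a lower value, beside 1.41%. Gria4 1383707_at and Slc1a2 1369694_at had 6 h arrays wholly above the 1 h arrays (5.13%, beside 3.55%), and 0 members had them wholly below (4.04% of all). The count at an unadjusted p under 0.05 was 10 without ketone_6h 1, 2 without ketone_1h 3, and 0 without ketone_1h 1, without ketone_6h 2 or without ketone_6h 3. This comparison shares its 1 h arrays with the first, so a positive change here and a negative one there are not separate evidence.

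Other genes of the pathway were read from 5 lists, and 0 of their probe sets passed in any comparison by limma. An unadjusted p under 0.05 was reached at 1 h by 6 scaffold, 2 metabolic, 2 metabotropic signalling, 1 auxiliary subunit and 0 coagonist probe sets, at 6 h by 3, 1, 4, 0 and 0 of the same lists, and at 6 h against 1 h by 2 metabolic ones. Over all tested probe sets the share in either direction was 11.4% at 1 h, 4.25% at 6 h and 2.72% at 6 h against 1 h. The lists held 32 scaffold, 16 metabolic, 15 metabotropic signalling, 12 auxiliary subunit and 6 coagonist probe sets. Scaffold and trafficking proteins that hold the receptors at the synapse had 22 of 32 negative changes at 1 h (median -0.10). Of the 17 scaffold genes tested, only Dlg4 and Homer1 had probe sets with an unadjusted p under 0.05, at 1 h and at 6 h alike. Dlg4, the main postsynaptic scaffold, had -0.83 ± 0.16 (limma adjusted p = 0.236), with -1.44 ± 0.39 and 0.13 ± 0.12 in its other probe sets. Homer1, which ties group I metabotropic receptors to calcium stores, had -0.34 ± 0.10 (limma adjusted p = 0.352), with -0.62 to 0.13 in its 4 other probe sets. At 6 h 20 of 32 were negative, with -0.57 ± 0.16 for Dlg4 and -0.35 ± 0.10 for Homer1.

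Signalling partners of metabotropic receptors had 11 of 15 negative changes at 1 h (median -0.18) and 12 of 15 at 6 h (median -0.16). Gnaq, the G protein alpha subunit behind Grm5, had -0.98 ± 0.42 and -1.02 ± 0.42, and the calcium release channel Itpr1 -0.15 ± 0.07 and -0.18 ± 0.07. Auxiliary subunits of AMPA and kainate receptors had 8 of 12 negative at 1 h (median -0.08), with 0.38 ± 0.16 for Gsg1l and -0.44 ± 0.24 for Cacng8. Enzymes and carriers of glutamate and glutamine metabolism had 5 of 16 negative at 1 h (median 0.05). Among them the aspartate aminotransferase Got1 had 1.13 ± 0.16 at 1 h (limma adjusted p = 0.051) and 0.73 ± 0.16 at 6 h. The glutamine synthetase Glul had -0.16 ± 0.07 and 0.02 ± 0.07. Its other probe sets had -0.59 ± 0.39 and -0.40 ± 0.24 at 1 h, and -0.67 ± 0.39 and -0.34 ± 0.24 at 6 h. Genes for the NMDA receptor coagonists had 3 of 6 negative at 1 h (median 0.03), with 0.07 ± 0.11 for Phgdh, which starts serine synthesis, and -0.04 ± 0.29 for the glycine transporter Slc6a9.

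Cell type markers were read beside these values, since in bulk RNA fewer cells of a type and less RNA per cell cannot be told apart. All 6 general neuron markers were above the filter, but so were 7 of 8 astrocyte, 8 of 10 oligodendrocyte, 8 of 9 microglial, 5 of 6 endothelial and 3 of 5 choroid plexus markers, although the labels name neurons. Excitatory neuron markers (6 of 7 genes, 9 probe sets) were all negative at 1 h and at 6 h, with 0 called by limma. An unadjusted p under 0.05 was reached by 5 of 9 probe sets at 1 h and 3 of 9 at 6 h. Those at 1 h were of Camk2a, Prox1 and Tbr1, and those at 6 h of Camk2a, Neurod6 and Tbr1. Camk2a gave more than 1 of those at 1 h, so this is not a count of separate genes. Neurod2 (-0.31 ± 0.23), Neurod6 (-0.20 ± 0.11) and Nrgn (-0.10 ± 0.07) did not reach that level at 1 h. At 1 h an unadjusted p under 0.05, in either direction, held for 4 of 9 interneuron, 4 of 9 microglial and 3 of 10 astrocyte probe sets. It held for 1 of 13 oligodendrocyte, 1 of 3 choroid plexus, 0 of 9 general neuron and 0 of 6 endothelial ones. At 6 h it held for 1 interneuron (Sst) and 1 microglial (Aif1) probe set, both higher. The share over all tested probe sets was 11.4% at 1 h and 4.25% at 6 h. At 1 h Pvalb, Sst, Vip, Aif1 and C1qa were higher. Gad2, both probe sets of P2ry12, and the astrocyte, oligodendrocyte and choroid plexus ones were lower. The summed signal of the excitatory markers ran from 6872 to 7427 at 1 h and 7050 to 7622 at 6 h, against 8013 to 8572 in control. Both ketone groups lay wholly below control. All such sums are set mainly by the probe sets with high signal, Nrgn among them here. The sum over general neuron markers was 21526 to 21940 at 1 h and 20988 to 22556 at 6 h, against 22782 to 22886 in control. In this sum too both ketone groups lay wholly below control. Of the 9 general neuron probe sets 8 were negative at 1 h and 8 at 6 h. Interneuron markers (8 of 8 genes) summed to 9956 to 10199 at 1 h and 9541 to 9662 at 6 h, against 9045 to 9266 in control. Both ketone groups lay wholly above control in this sum, which the probe sets with high signal set. Of the 9 interneuron probe sets 3 were negative at 1 h, Gad2 (-1.30 ± 0.51) and both of Gad1 (-0.52 ± 0.47 and -0.09 ± 0.08), while Pvalb had 0.65 ± 0.13, Sst 0.37 ± 0.07 and Vip 0.32 ± 0.10. Astrocyte markers, with 5 of 10 probe sets negative at 1 h, summed to 18503 to 19338 at 1 h and 18440 to 19907 at 6 h, against 19252 to 19625 in control. Oligodendrocyte markers, with 11 of 13 negative at 1 h, summed to 27272 to 29910 at 1 h and 27298 to 30830 at 6 h, against 29774 to 30531 in control. In both glial lists the ketone arrays overlapped with control. The microglial sum was 1575 to 1679 at 1 h and 1509 to 1595 at 6 h, against 1477 to 1596 in control. For endothelium it was 763 to 809 at 1 h and 744 to 877 at 6 h, against 689 to 754 in control. For choroid plexus it was 3818 to 4198 at 1 h and 4450 to 4765 at 6 h, against 4619 to 4778 in control. At 1 h the endothelial sum lay wholly above control and the choroid plexus sum wholly below it, while both overlapped with control at 6 h. The part that cell makeup or RNA integrity has in the members' values was not tested beyond the covariate fit.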

How the data were processed

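Per the values, the authors deposited linear signal intensity for 31099 probe sets of a rat array. Which software made them, and with which settings, is not given here by label or header. Trimmed of 2% at either end, the signals averaged 150 on every array, and 0 values were at or below 0. The number of arrays sets the precision.

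From these, log2(signal + 16) was quantile normalized, because array medians spanned 0.206, over a limit of 0.2. The 57 control probe sets and those under the 40th percentile of the mean (log2 5.21) were left out, which left 18625. All comparisons came from a single limma fit (limma 3.58.1, R 4.3.3) of the 3 group means with an intensity trend, leaving 6 residual degrees of freedom, with Benjamini-Hochberg adjusted p-values over the whole table. Platform symbols were used: of 20826 single names, 20758 matched RefSeq gene numbers and 0 changed. Values on every array are given for members with an unadjusted p under 0.05, for Gria2, Grik2, Grin1, Grm5, Slc17a7 and Slc1a2, and for a few others (Gria3, Grin2a, Grik4, one Slc1a3 probe set) chosen after their values were seen. Of each list the 2 genes with the smallest F-test p are named. Members and lists were chosen with earlier results of these data known. The fit was tested on simulated data. Figures used matplotlib 3.10.9.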

Additional observations from a re-analysis of the deposited data

How the results depend on the processing

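In each of the 3 comparisons 0 member probe sets passed an adjusted p of 0.05 by limma in any of 21 alternatives, among them each array left out in turn; the lowest adjusted p of a member was 0.108 at 1 h, 0.383 at 6 h and 0.58 for 6 h against 1 h. The changes of the 9 probe sets with an unadjusted p under 0.05 kept their sign in every alternative that tested them. Counts of members at an unadjusted p under 0.05 moved more. At 1 h (6) they were 3 with the filter at the 60th percentile, 11 with array weights, 10 with only the compared groups, 1 with the 3'/5' covariate and 2 to 10 with 1 array left out. At 6 h (3) they were 1 with the values as deposited, 5 with arrays centred on their medians, 5 without a filter, 1 with the filter at the 60th percentile, 6 with array weights, 1 with the covariate and 0 to 9 with 1 array left out. For 6 h against 1 h (1) they were 5 without a filter, 6 with array weights, 0 with only the compared groups, 7 without ketone_1h 3 and ketone_6h 1, and 0 to 10 with 1 array left out. The cause was not tested. The median change of the member genes was -0.13 at 1 h (-0.20 to -0.05 with 1 array left out), 0.03 at 6 h (-0.06 to 0.03, and -0.14 with the filter at the 60th percentile, which tests fewer genes) and 0.13 for 6 h against 1 h (0.08 to 0.17). Without leaving out arrays, it ran from -0.16 to -0.06 at 1 h (-0.06 with 1 probe set per gene and with arrays centred on their medians), from -0.14 to 0.05 at 6 h, where its sign was not stable, and from 0.06 to 0.15 for 6 h against 1 h. The spread between arrays of a group (SD 0.13) is that of the median level of the member genes, not of their median change. It is therefore no measure of how precise the 1 h value is. With the replicate block the counts were 8, 2 and 1, and 0 members passed. Same-numbered arrays correlated at -0.36 to 0.54 in their deviations from the group means, and differently numbered ones at -0.43 to 0.53. These ranges cannot decide whether the numbers pair the arrays, because the deviations within a group sum to 0. The labels do not state a pairing. The covariate fit and the fit without ketone_1h 3 and ketone_6h 1 were chosen after seeing the data. Signals near the filter's level limit the sizes for Grm5, Slc1a5 and Grin2b 1369745_at.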
